A study of Mus musculus with 33 samples.

Results

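The genes described here are those of the mouse major histocompatibility complex (MHC) and of antigen presentation. They are every row of the liver expression table whose symbol starts with H2-, together with B2m, Cd74, Ciita, Nlrc5, Tap1, Tap2, Tapbp, Tapbpl, Erap1, Cd1d1, Mr1 and Fcgrt, wherever the counts summed to at least 10 over the 33 libraries. Of 46 such rows, 44 met that minimum, out of 19169 genes in the table. H2-M10.1, with 3 counts in all, and H2-T3, with 6, fell under it. By role, 28 members belong to the class I pathway, 11 to the class II pathway and 3 are class I-like proteins, and 2 (H2-Ke2 and H2-Ke6) match by name only. The class I members include rows annotated as pseudogenes. H2-K2 is a transcribed unprocessed pseudogene, and H2-Bl, H2-Q5 and H2-T10 are polymorphic pseudogenes. A filter on low counts left 41 members for testing, among 14934 genes. The 3 members it left out are all class I: H2-L, H2-M2 and H2-M5.

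Class I molecules are found on nearly all nucleated cells and hold peptides made in the cell's own cytosol, which CD8 T cells read. A class I heavy chain pairs with B2m, is loaded in the endoplasmic reticulum with peptides pumped in by Tap1 and Tap2 and edited by tapasin (Tapbp), and its genes are driven by Nlrc5. Class II molecules are restricted mainly to dendritic cells, macrophages and B cells and hold peptides of proteins taken up from outside, which CD4 T cells read. A class II alpha and beta chain assemble on the invariant chain Cd74, exchange its remnant for a peptide with the help of H2-DM in endosomes, and are transcribed under Ciita. In the liver, Kupffer cells, dendritic cells and B cells are known for class II, whereas hepatocytes carry class I and secrete the soluble class I molecule H2-Q10.

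Polyadenylated RNA was sequenced from livers of wild-type (WT) mice and of knock-in (KI) mice, labelled Nlrp3A350V/+CreT. The KI mice carry 1 mutant allele of Nlrp3, the sensor of an inflammasome, whose A350V change is switched on by tamoxifen. For 6 weeks the mice ate control chow with placebo, or chow that held GS-444217, a selective inhibitor of the stress kinase ASK1 (called ASK1i here). On control chow there were 10 WT libraries, 7 of them from females, and 5 KI libraries, 1 of them from a female. On the inhibitor there were 8 WT libraries, 4 from each sex, and 10 KI libraries, 5 from each sex. These groups are called WT control, KI control, WT ASK1i and KI ASK1i. The labels used here name neither strain, age nor Cre driver, nor whether WT mice carried Cre or received tamoxifen. Nor do they tie each library to its own mouse. The p-values therefore set group differences against the spread between libraries, which may not be that between mice.

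Total counts per library ran from 28099685 to 40008114, and the members' share of all counts was 0.539% ± 0.0304 (SD, n = 10) for WT and 0.695% ± 0.0761 (n = 5) for KI on control chow. On the inhibitor it was 0.570% ± 0.0269 (n = 8) for WT and 0.572% ± 0.0928 (n = 10) for KI. Nlrp3 ranged from 1.62 to 4.96 CPM (read counts scaled to TMM-normalised library sizes) in WT control and from 7.87 to 15.6 CPM in KI control, so these groups did not overlap. The library labelled KI ASK1i replicate 5 lay among the WT libraries on the first principal component (-59.23, against 54.85 to 103.2 for the other 9 of its group) and held 2.10 CPM of Nlrp3. It is kept unless a sentence says otherwise, and the values without it stand beside the counts. They also stand beside the leading members of each comparison except that of the genotypes on control chow. Titles fall into a numbered set and a set numbered with a P, which has 1 KI control library. Titles also carry an L code of unstated meaning, and none of these codes is shared by the genotypes on control chow, where code and genotype cannot be told apart.

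Promoter windows show what the class I and class II genes share in sequence, since the data bear on members that move together. They run from 250 bases before to 50 bases after the annotated start (RefSeq, GRCm38.p6), and 27 of the 44 members had one. The 3 short motifs were searched on both strands. The first was GATTGG, the core of the Y box that NF-Y binds in class I and class II promoters. The others were GGGATTCC, a kappa B site of the class I enhancer A, and an interferon-stimulated response element written as GAAA, any 2 bases, and GAAA again. Below, capitals mark these matches, also where they lie on the other strand, and sequences run 5′ to 3′ on the gene's strand. H2-Aa (chr17:34287774-34288073, minus strand), H2-Eb1 (chr17:34305617-34305916, plus) and H2-DMb1 (chr17:34152941-34153240, plus) are class II members. H2-K1 (chr17:34000298-34000597, minus), H2-D1 (chr17:35262844-35263143, plus), B2m (chr2:122147437-122147736, plus) and H2-Q10 (chr17:35469839-35470138, plus) are class I members that differed in their response.
H2-Aa: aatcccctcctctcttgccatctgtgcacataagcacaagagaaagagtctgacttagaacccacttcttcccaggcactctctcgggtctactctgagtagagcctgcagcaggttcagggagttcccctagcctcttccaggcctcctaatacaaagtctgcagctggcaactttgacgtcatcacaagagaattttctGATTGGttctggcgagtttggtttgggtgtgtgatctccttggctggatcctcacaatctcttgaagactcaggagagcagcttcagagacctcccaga
H2-Eb1: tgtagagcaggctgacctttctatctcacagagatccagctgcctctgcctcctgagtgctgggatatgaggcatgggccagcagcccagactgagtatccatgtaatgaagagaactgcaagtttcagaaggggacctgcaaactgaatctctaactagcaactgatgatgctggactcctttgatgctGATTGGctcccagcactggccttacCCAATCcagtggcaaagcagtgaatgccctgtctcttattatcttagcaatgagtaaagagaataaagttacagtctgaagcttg
H2-DMb1: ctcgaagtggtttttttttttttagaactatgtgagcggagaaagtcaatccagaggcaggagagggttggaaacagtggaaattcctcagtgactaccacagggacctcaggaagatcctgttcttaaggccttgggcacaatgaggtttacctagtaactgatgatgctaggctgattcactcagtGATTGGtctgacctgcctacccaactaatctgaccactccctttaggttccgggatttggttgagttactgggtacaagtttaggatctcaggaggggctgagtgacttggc
H2-K1: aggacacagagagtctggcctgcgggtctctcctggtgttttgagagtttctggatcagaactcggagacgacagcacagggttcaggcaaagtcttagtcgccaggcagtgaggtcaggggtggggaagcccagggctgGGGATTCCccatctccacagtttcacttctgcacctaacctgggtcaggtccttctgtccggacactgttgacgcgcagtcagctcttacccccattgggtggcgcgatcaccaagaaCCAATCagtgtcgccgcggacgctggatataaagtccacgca
H2-D1: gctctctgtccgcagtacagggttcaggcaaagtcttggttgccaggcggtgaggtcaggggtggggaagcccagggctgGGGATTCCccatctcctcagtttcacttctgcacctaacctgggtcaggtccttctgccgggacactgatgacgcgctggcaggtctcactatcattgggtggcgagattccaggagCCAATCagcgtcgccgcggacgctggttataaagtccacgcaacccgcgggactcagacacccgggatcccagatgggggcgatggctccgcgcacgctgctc
B2m: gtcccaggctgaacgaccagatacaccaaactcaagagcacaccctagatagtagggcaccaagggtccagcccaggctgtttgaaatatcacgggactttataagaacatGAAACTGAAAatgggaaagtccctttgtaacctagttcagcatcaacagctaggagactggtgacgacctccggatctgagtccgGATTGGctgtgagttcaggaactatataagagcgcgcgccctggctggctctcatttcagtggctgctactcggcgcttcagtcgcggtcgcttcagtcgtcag
H2-Q10: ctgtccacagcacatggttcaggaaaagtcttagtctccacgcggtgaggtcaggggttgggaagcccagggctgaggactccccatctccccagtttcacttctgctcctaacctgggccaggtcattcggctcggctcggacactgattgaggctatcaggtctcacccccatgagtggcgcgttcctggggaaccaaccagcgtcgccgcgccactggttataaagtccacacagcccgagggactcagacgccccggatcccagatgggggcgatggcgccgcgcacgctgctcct

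All 8 class II members with a window held GATTGG in at least 1 window. H2-Ab1, Cd74 and Ciita, which rose in KI livers, had no window and were not searched. They had 9 windows, of which 8 held it, since H2-DMa has a second window without a match, against 16.1% of 32851 promoters in the table. Those 8 included members that rose in KI livers (H2-Aa, H2-Eb1, H2-DMa and H2-DMb1) and members that did not (H2-Eb2, H2-DMb2, H2-Oa and H2-Ob). In H2-Aa the match began at position -49 from the start, in H2-Eb1 at -60 with a second on the other strand at -35, and in H2-DMb1 at -62. In H2-DMa it began farther out, at -199. In the class I gene H2-K1 it began at 8, after the annotated start, in the window shown and at -6 in its other window. Among class I members 9 of 16 held GATTGG (10 of 17 windows), as did neither of the 2 class I-like members with a window. GGGATTCC was found in 4 of 16 class I members (H2-K1, H2-D1, H2-Q6 and H2-Q7), in 0 of 8 class II members and in 1.06% of all promoters. The interferon element was found in B2m, Erap1, H2-T22 and H2-T23, also 4 of 16, and in 3.44% of all promoters. H2-Q10 held none of the 3 exact strings. Looser forms were not searched, so a window without a match, in H2-K1, H2-D1 or H2-Q10 too, may still hold such an element. A match is a run of letters and not a measured binding site.

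Per kilobase of exon, the class I light chain and heavy chains stood highest in WT livers. In WT control, B2m reached 1503 ± 142 CPM per kb (SD, n = 10), H2-K1 682 ± 30.8, H2-Q10 562 ± 105 and H2-D1 237 ± 18.8, in that order. The ranges of H2-K1 and H2-Q10 overlapped (620 to 721 and 455 to 778), while B2m and H2-D1 overlapped neither. Cd74, the invariant chain, ranked 8 with 79.8 ± 21.7 CPM per kb, and H2-Aa ranked 9 with 43.2 ± 11.0. In KI control (n = 5), Cd74 ranked 4 with 426 ± 117 CPM per kb, a range of 290 to 585 that overlapped those of H2-Q10 and H2-D1, and H2-Aa ranked 6 with 239 ± 74.8.

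The class II chains were several-fold more abundant in KI than in WT livers on control chow. H2-Aa, the alpha chain of I-A, measured 385, 262, 315, 167 and 218 CPM in the 5 KI control libraries, against a lowest, median and highest of 35.4, 43.3 and 74.3 CPM in WT control. H2-Ab1, its beta chain, measured 279, 188, 239, 122 and 155 CPM against 21.5, 28.4 and 50.2 CPM. H2-Eb1, the beta chain of I-E, measured 265, 172, 221, 109 and 145 CPM against 20.9, 28.5 and 43.7 CPM. For each chain the lowest KI control library exceeded the highest of 10 WT control libraries. H2-Aa rose by a log2 fold change of 2.42 (SE 0.35, adjusted p = 1.4e-06 by edgeR's quasi-likelihood test with Benjamini-Hochberg adjustment), a fold of 5.36. H2-Ab1 rose by 2.60 (SE 0.37, adjusted p = 9.6e-07) and H2-Eb1 by 2.57 (SE 0.38, adjusted p = 1.7e-06). In bulk tissue, more cells of a type and more RNA per cell cannot be told apart.

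The genes that load class II and the class II transactivator rose by similar amounts. Cd74 measured 828.3, 580.8, 704.02, 410.6 and 492.3 CPM in KI control and 82.9, 105 and 179 CPM (lowest, median and highest) in WT control, a log2 fold change of 2.39 (SE 0.31, adjusted p = 2.9e-07). H2-DMa, one chain of the peptide exchanger H2-DM, measured 33.7, 26.2, 31.8, 16.6 and 21.3 CPM against 3.85, 4.66 and 6.97 CPM, a log2 fold change of 2.42 (SE 0.30, adjusted p = 1.2e-07). Ciita measured 10.9, 10.5, 13.8, 9.85 and 6.42 CPM against 1.37, 1.95 and 2.74 CPM, a log2 fold change of 2.25 (SE 0.29, adjusted p = 2.1e-07). No KI control library overlapped a WT control library for these 3 genes. H2-DMb1, the other H2-DM chain, rose by 2.62 (SE 0.34, adjusted p = 2.6e-07), with all 5 KI control libraries between 22.2 and 43.1 CPM and all WT control libraries at 8.93 CPM or less.

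**Figure D1:**
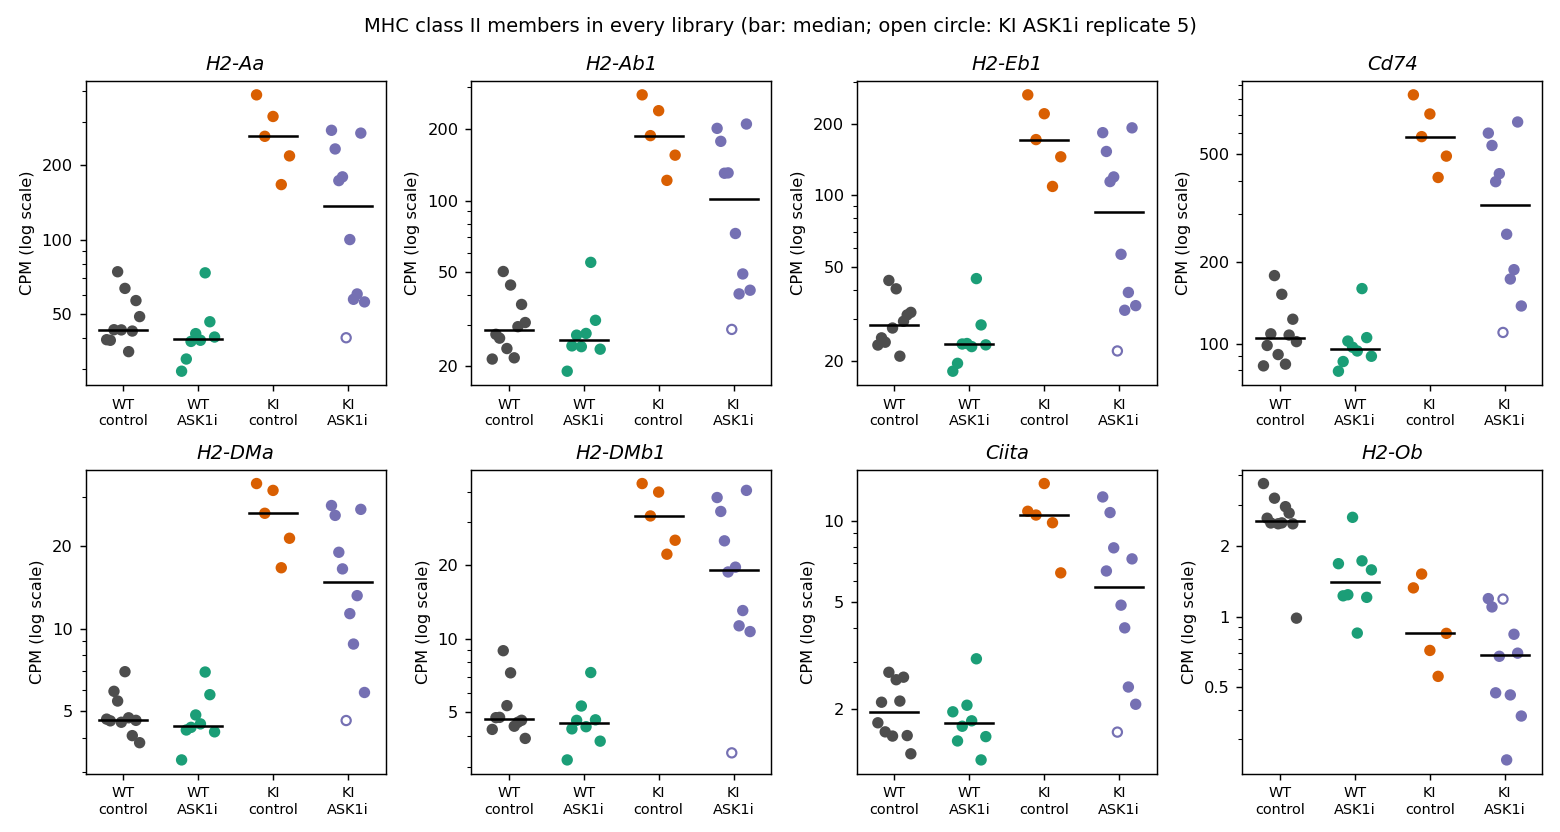
Each point is 1 library and each bar a group median, in CPM on a log scale, for 8 class II members in the 4 groups. The 5 KI control libraries lie above all 10 WT control libraries for every gene drawn except H2-Ob, and KI ASK1i libraries of H2-Aa spread from 40.2 to 277 CPM.

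The other 4 class II members did not rise. H2-Ob, the beta chain of H2-DO, an inhibitor of H2-DM known mainly from B cells, fell by 1.23 on the log2 scale (SE 0.31, adjusted p = 0.0011), from 0.985, 2.57 and 3.70 CPM in WT control to 1.33, 1.52, 0.718, 0.556 and 0.849 CPM in KI control. Of these 5 libraries, 3 lay below every WT control library. Its alpha chain H2-Oa (log2 fold change -0.34, adjusted p = 0.50), H2-Eb2 (-0.88, adjusted p = 0.16) and H2-DMb2 (-0.27, adjusted p = 0.45) had negative estimates that did not pass the test, at group medians of 1.11 CPM or less. H2-DMb2 is a near copy of H2-DMb1, and RSEM divides reads between such copies, so the split between them is uncertain. B cell markers moved with H2-Ob: 7 of 8 fell and 0 rose (median log2 fold change -2.11), beside 28.9% of all genes called lower. Their summed level was 6.36 to 35.8 CPM in WT control and 3.87 to 12.2 CPM in KI control, where Pax5 was at 0 in 3 of 5 libraries. The part of B cells in the H2-Ob result was not tested.

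Counted by class, KI livers on control chow had 20 members higher and 5 lower of 41 tested. In the same comparison 56.7% of all 14934 genes were called, 27.8% as higher and 28.9% as lower, so a share of called members near these values is not a result about the members. Class II had 7 of 11 higher and 1 lower, with a median log2 fold change of 2.39, and all 7 exceeded a log2 fold change of 1.5, which 11% of all genes did. Class I had 12 of 25 higher and 1 lower, with a median of 0.31, and the median over all genes was -0.03. Class I members past the filter ranged from -0.50 to 1.94. KI ASK1i replicate 5 enters this comparison through the shared estimate of spread. Without it, 20 members were higher and 7 lower, beside 59.8% of all genes called. Class I then had 12 higher and 2 lower, and H2-Ke2 was called lower beside H2-Ke6. With the L code as covariate, 11 of the 41 members lost their call and 4 gained one. Class I then had 3 higher and 5 lower, in place of 12 and 1. The genotypes share no code on control chow, so that fit tells code from genotype only through the ASK1i libraries. The class II count stayed at 7 in numbered titles alone, with the L code as covariate and without any single library, and was 3 in P titles alone, where 1 KI library stands against 2. There, H2-Aa had a log2 fold change of 2.08 (adjusted p = 0.18), against 2.53 (adjusted p = 2.8e-05) in numbered titles.

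**Figure D2:**
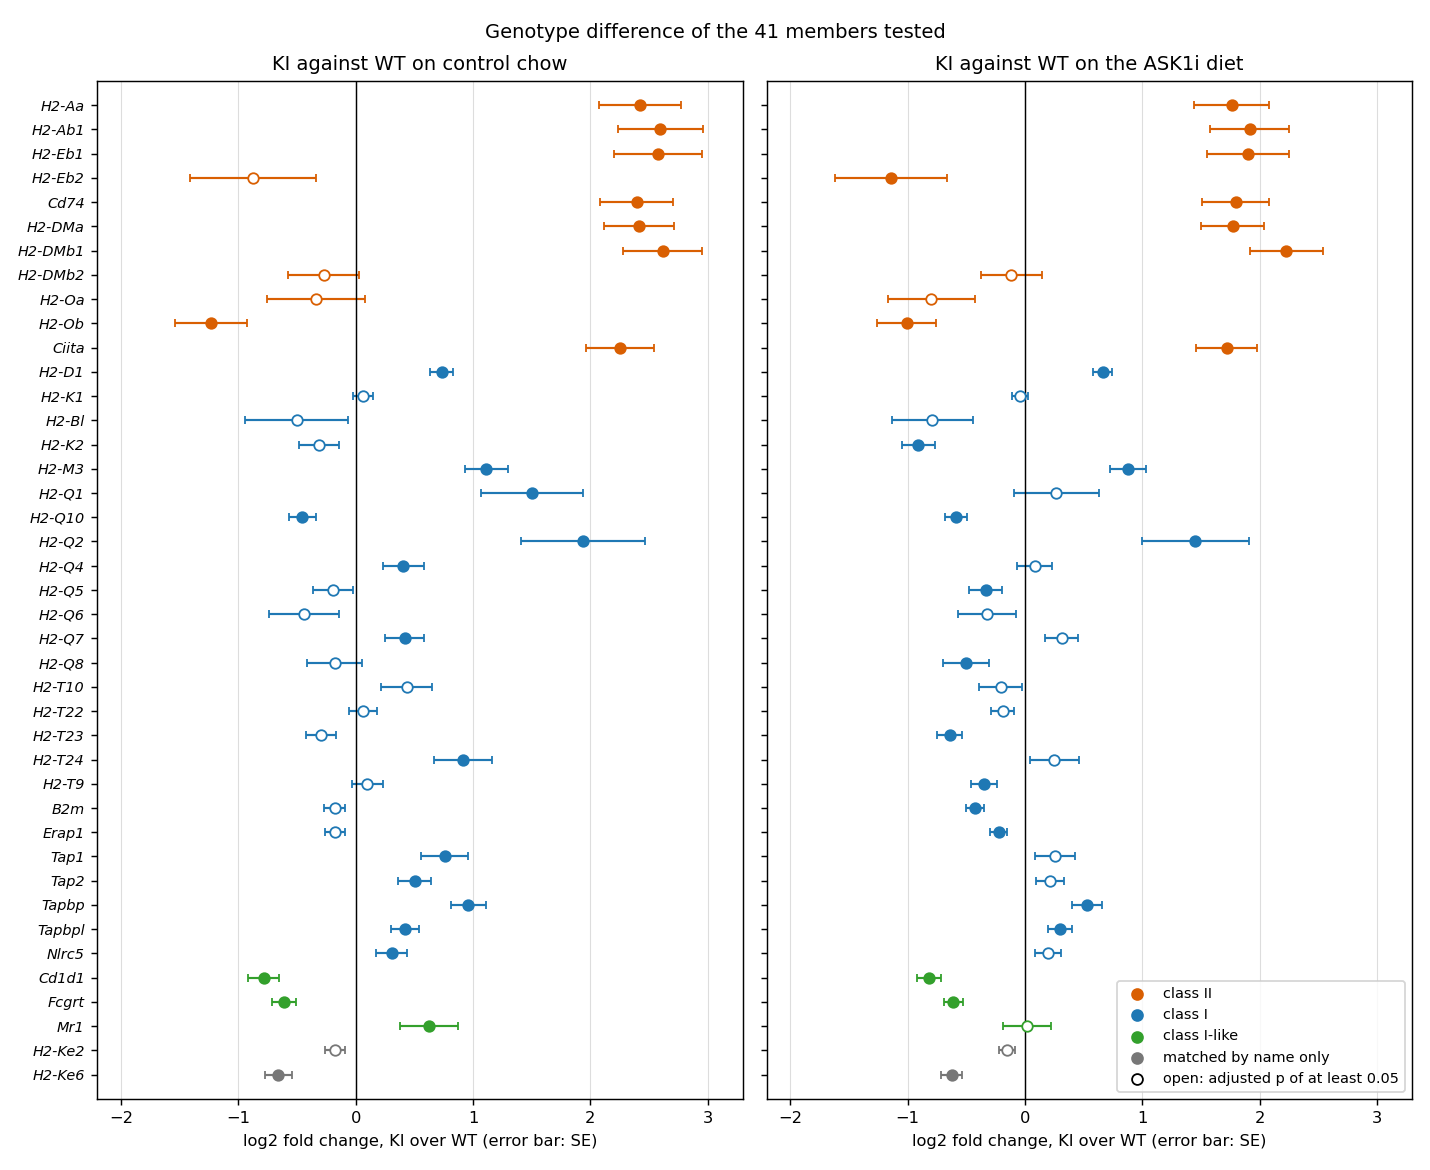
Points are log2 fold changes of KI over WT and bars their standard errors for the 41 members tested, on control chow (left) and the ASK1i diet (right), with filled points for adjusted p under 0.05. On both diets 7 class II members stand to the right of every class I member, between 2.25 and 2.62 on the left and between 1.72 and 2.23 on the right.

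Of the classical class I heavy chains, H2-D1 rose and H2-K1 did not pass the test. H2-D1 measured 865, 763, 890.5, 859 and 699.8 CPM in KI control, against 452, 498 and 574 CPM (lowest, median and highest) in WT control, with no overlap and a log2 fold change of 0.73 (SE 0.10, adjusted p = 3.9e-07). H2-K1 measured 1225, 1116, 1237, 1209 and 1013 CPM against 1026, 1130 and 1194 CPM, with overlapping groups and a log2 fold change of 0.06 (95% interval -0.10 to 0.23, adjusted p = 0.53). H2-L, whose annotated span overlaps that of H2-D1, summed to 18.1 counts in all libraries and was not tested. Reads that fit H2-K1, H2-D1 and their near copies equally were divided by RSEM, so single values of these genes carry that uncertainty.

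Of the light chain and the 5 loading genes of class I, 4 rose, beside 27.8% of all genes called higher. B2m, the light chain, measured 1261, 1116, 1134, 1024 and 1073 CPM in KI control against 1101, 1291 and 1497 CPM in WT control, a log2 fold change of -0.18 (SE 0.09, adjusted p = 0.098) with overlapping groups. Tapbp, or tapasin, which holds empty class I at the peptide pump, rose by 0.96 (SE 0.15, adjusted p = 4.5e-06), with KI control at 132 to 181 CPM and WT control at 65.1 to 96.9 CPM. Tap1, a subunit of that pump, measured 49.1, 63.5, 62.3, 25.1 and 28.1 CPM against 18.0, 27.4 and 32.5 CPM, a log2 fold change of 0.76 (SE 0.20, adjusted p = 0.0021). Its libraries were of unequal height: 3 lay above every WT control library and 2 within the WT range. Tap2 rose by 0.50 (adjusted p = 0.0034) and Tapbpl, a second peptide editor, by 0.42 (adjusted p = 0.0044), while Erap1, which trims peptides, had -0.18 (adjusted p = 0.086). With the L code as covariate Tap1 (adjusted p = 0.077), Tap2, Tapbp (adjusted p = 0.091) and Tapbpl were no longer called.

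Nlrc5 stood at the threshold. It measured 39.9, 42.2, 39.0, 28.8 and 28.7 CPM in KI control against 24.1, 27.9 and 38.3 CPM in WT control, and 3 of 5 lay above every WT control library. Its log2 fold change of 0.31 (SE 0.13) had an adjusted p of 0.047, and the call was lost without any 1 of 14 of the 33 libraries.

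**Figure D3:**
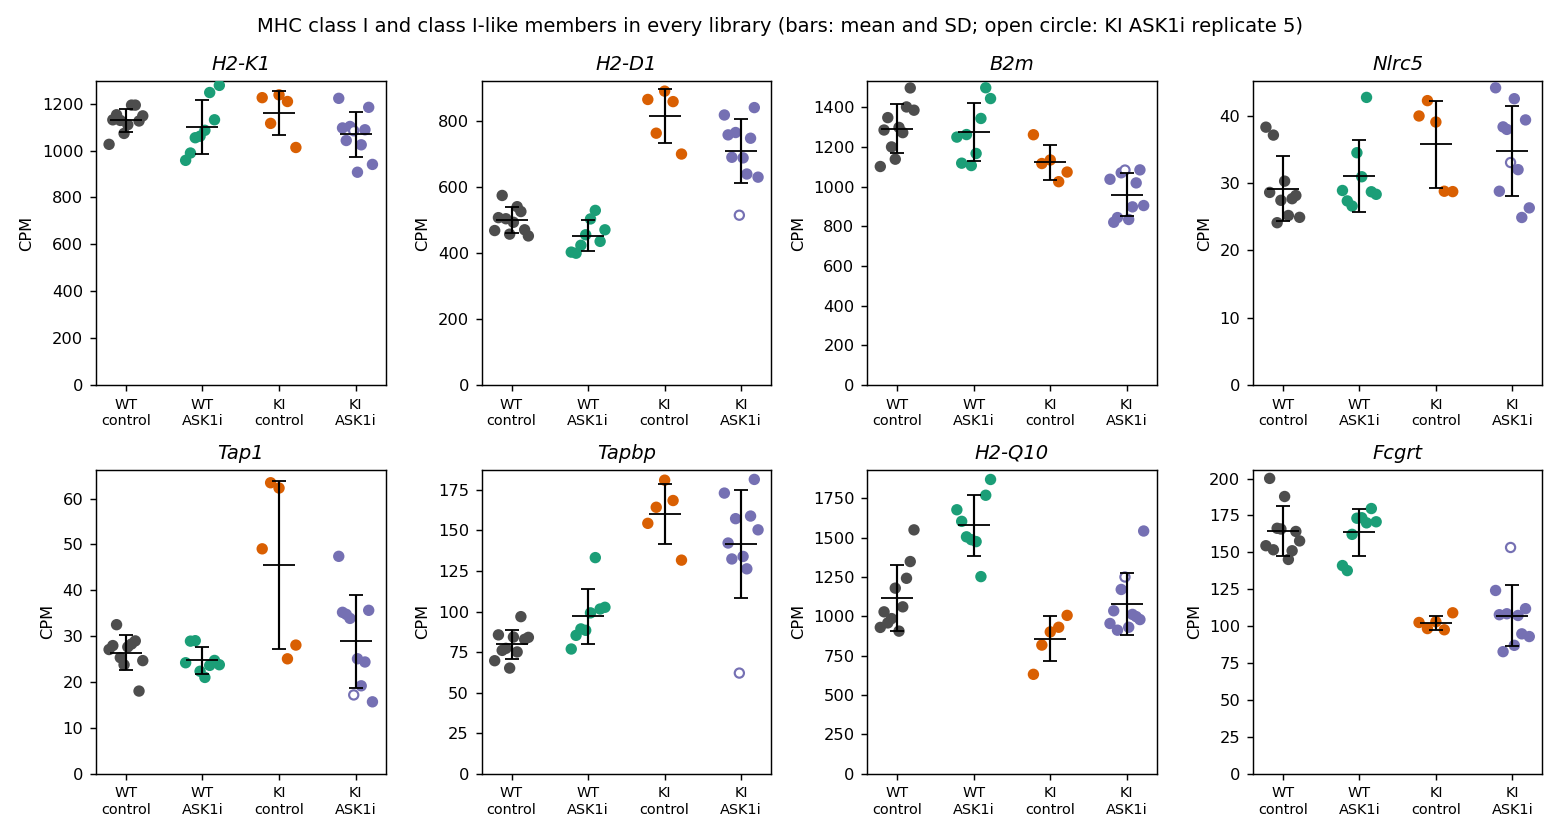
Each point is 1 library, with the group mean and SD as bars, in CPM on an axis from 0, for 8 class I and class I-like members. H2-K1 overlaps in all groups, H2-D1 is higher in KI control (699.8 to 890.5 CPM) than in WT control (452 to 574 CPM), and Fcgrt is lower.

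Non-classical class I genes moved both ways, 6 of 16 tested rising and 1 falling on control chow. Of all genes, 27.8% were called higher and 28.9% lower. H2-M3, which presents N-formylated peptides, rose by 1.11 (SE 0.18, adjusted p = 7.0e-06) from 2.61 to 5.28 CPM in WT control to 6.26 to 9.74 CPM in KI control. H2-T24 rose by 0.91 (adjusted p = 0.0024), also with no overlap. H2-Q1 and H2-Q2 rose by 2.83-fold and 3.82-fold in the fit with sex and title set, at group medians of 4.36 and 0.499 CPM in KI control. The groups overlapped for each. H2-Q1 had a mean of 2.10 and a highest value of 3.84 CPM in WT control, against a mean of 4.35 and a lowest of 3.72 CPM in KI control. H2-Q2 reached 0.394 CPM in WT control and was as low as 0.362 CPM in KI control. H2-Q4 (0.40, adjusted p = 0.048) and H2-Q7 (0.42, adjusted p = 0.033) passed the test narrowly. H2-Q4 lost its call without any 1 of 16 libraries and H2-Q7 without KI control replicate 2 or 4, and the estimate of H2-Q7 was -0.01 in P titles alone. H2-Q10, the secreted molecule of hepatocytes, fell by 0.45 (SE 0.12, adjusted p = 0.0016), from 906, 1045 and 1550 CPM to 632, 817, 901, 931 and 1006 CPM. In numbered titles alone its estimate was -0.34 (adjusted p = 0.052). Hepatocyte markers moved with it, 5 of 7 falling and 0 rising, and summed to 108358 to 137703 CPM in WT control and 37049.7 to 57567.5 CPM in KI control. Their part in the H2-Q10 result was not tested. H2-T23, the Qa-1 heavy chain that NK cell receptors read, had -0.29 (adjusted p = 0.053). H2-M2, left out by the filter, had medians of 0.0667 CPM in WT control and 0.304 CPM in KI control, and H2-M5 summed to 11 counts.

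The class I-like proteins, encoded outside the complex, split in direction. Cd1d1, which shows lipids to natural killer T cells, measured 125, 155, 195, 204 and 164 CPM in KI control against 244, 287 and 310 CPM in WT control, and fell by 0.79 on the log2 scale (SE 0.13, adjusted p = 8.3e-06). Fcgrt, the neonatal Fc receptor that recycles IgG and albumin, measured 102, 98.3, 103, 97.5 and 109 CPM against 145, 161 and 200 CPM, and fell by 0.61 (SE 0.10, adjusted p = 1.5e-05). For both, every KI control library lay below every WT control library. Mr1, which shows vitamin B metabolites to MAIT cells, rose by 0.63 (SE 0.25, adjusted p = 0.031), with 9.26 to 12.4 CPM against 3.72 to 8.90 CPM. The Mr1 call was lost without KI control replicate 1, KI control replicate 2 or WT control replicate 1P. Of the members matched by name only, H2-Ke6, a steroid dehydrogenase gene, fell by 0.66 (SE 0.11, adjusted p = 1.2e-05) and H2-Ke2, a prefoldin subunit gene, had -0.18 (adjusted p = 0.071).

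On the ASK1i diet the genotype difference in class II was again found in 7 members, with a wider spread in KI. H2-Aa measured 40.2, 137 and 277 CPM (lowest, median and highest) in KI ASK1i and 29.5, 39.9 and 73.6 CPM in WT ASK1i, and rose by 1.76 (SE 0.32, adjusted p = 2.8e-05). H2-Ab1 measured 28.6, 101.5 and 210.1 CPM against 19.1, 25.7 and 54.9 CPM, and rose by 1.91 (SE 0.34, adjusted p = 1.7e-05). Ciita measured 1.65, 5.69 and 12.3 CPM against 1.30, 1.77 and 3.08 CPM, and rose by 1.72 (SE 0.26, adjusted p = 1.9e-06). For H2-Aa and H2-Ab1, 6 of 10 KI ASK1i libraries lay above every WT ASK1i library, and for Ciita 7 of 10 did. Without the library labelled KI ASK1i replicate 5 these values were 1.88, 2.04 and 1.85. H2-Eb1 (1.90), Cd74 (1.79), H2-DMa (1.77) and H2-DMb1 (2.23) rose too, and without that library had 2.03, 1.91, 1.90 and 2.38. H2-Ob fell by 1.01 (adjusted p = 0.00094; -1.07 without it). H2-Eb2 fell by 1.14 (adjusted p = 0.041), at 0.0752 CPM in the median KI ASK1i library, and that call was lost without replicate 5 (adjusted p = 0.068).

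Over the members, 12 were higher and 13 lower of 41 in KI on this diet, beside 59.1% of all genes called, 30.3% as higher and 28.8% as lower. Class II had 7 higher and 2 lower of 11 (median 1.76), and the 7 again exceeded 1.5, as 9.9% of all genes did. Class I had 5 higher and 8 lower of 25 (median -0.04, with 0.01 over all genes). Without replicate 5, class II had 7 higher and 1 lower and class I 7 and 7. In P titles alone, with 4 KI and 2 WT libraries, 3 class II members were called and H2-Aa had 1.62 (adjusted p = 0.16), against 1.98 (adjusted p = 0.0001) in numbered titles.

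In class I on the ASK1i diet, B2m fell by 0.42 (SE 0.08, adjusted p = 2.1e-05), from 1106, 1255 and 1498 CPM in WT ASK1i to 820, 961 and 1084 CPM in KI ASK1i, and all 10 KI libraries lay below all 8 WT libraries. H2-D1 rose by 0.66 (SE 0.08, adjusted p = 1.1e-07), with 515, 719 and 841 CPM in KI ASK1i against 399, 445 and 529 CPM. Its lowest KI library was replicate 5, and the other 9 lay above every WT ASK1i library. H2-K1 had -0.04 (95% interval -0.18 to 0.09, adjusted p = 0.62). The pseudogene H2-K2 (-0.91), H2-T23 (-0.64), H2-Q10 (-0.59) and H2-T9 (-0.35) fell, and H2-M3 (0.88), Tapbp (0.53) and Tapbpl (0.29) rose. Tap1 (0.26, adjusted p = 0.20) and Nlrc5 (0.20, adjusted p = 0.13) did not pass. H2-Q5 and H2-Q8 fell narrowly and lost their calls without any 1 of 20 and 9 libraries. Cd1d1 fell by 0.81 (SE 0.10, adjusted p = 8.6e-08), with 134, 196 and 251 CPM in KI ASK1i against 310, 342 and 373 CPM and no overlap. Fcgrt fell by 0.61 (adjusted p = 4.1e-07), and its highest KI library, at 153 CPM, was replicate 5. H2-Ke6 fell by 0.62 (adjusted p = 7.8e-07). Without replicate 5 the estimates were -0.45 for B2m, 0.72 for H2-D1, -0.65 for H2-Q10, 0.63 for Tapbp, -0.87 for Cd1d1 and -0.68 for Fcgrt. H2-Q7 (0.34), Tap2 (0.27) and H2-Ke2 (-0.20) were then called as well, and H2-Q5 was not (adjusted p = 0.075).

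The inhibitor changed 1 member in WT mice, where 1.4% of all genes were called, 1.13% as higher. H2-Q10 rose by 0.47 (SE 0.09, adjusted p = 0.0069), from 906, 1045 and 1550 CPM in WT control to 1253, 1554 and 1870 CPM in WT ASK1i. The groups overlapped, with 4 of 8 WT ASK1i libraries above every WT control library and all 8 above the WT control mean. With the L code as covariate (0.44, adjusted p = 0.16), in numbered titles alone (0.51, adjusted p = 0.099) and in P titles alone (0.90, adjusted p = 0.30) the estimate kept its sign and was not called. Without KI ASK1i replicate 5, which enters through the shared estimate of spread, H2-Q10 was again the 1 member called (0.46, adjusted p = 0.0020), where 2.51% of all genes were. At an unadjusted p under 0.05 were 8 of the 41 members, beside 13.9% of all genes. Apart from H2-Q10 they were led by H2-K2 (0.46, adjusted p = 0.10) and Cd1d1 (0.27, adjusted p = 0.21) among positive estimates and by H2-DMb2 (-0.82, adjusted p = 0.12), H2-Ob (-0.68, adjusted p = 0.18) and H2-Q7 (-0.29, adjusted p = 0.35) among negative ones. All 11 class II members had negative estimates, with a median of -0.19. The WT control group used here also serves in the genotype comparison above.

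In KI mice the inhibitor gave no call among the members. edgeR's quasi-likelihood test called 0 of 41, as did DESeq2 and limma-voom, and 0.0536% of all genes were called. At an unadjusted p under 0.05 were 19 members (17 without replicate 5), beside 10.3% of all genes. All 11 class II members had negative estimates (median -0.71), 8 of them with an unadjusted p under 0.05. H2-Aa measured 167 to 385 CPM in KI control and 40.2 to 277 CPM in KI ASK1i, where 5 of 10 libraries lay below every KI control library (log2 fold change -0.85, 95% interval -1.53 to -0.17, adjusted p = 0.45). Ciita had -0.63 (interval -1.18 to -0.08, adjusted p = 0.46), Cd74 -0.75 (interval -1.36 to -0.14, adjusted p = 0.45) and H2-Oa -1.02 (adjusted p = 0.45). Without replicate 5 no member was called either (0.0804% of all genes), and H2-Aa had -0.74, Cd74 -0.64 and Ciita -0.52 (each with an adjusted p of 0.52). The size of these estimates moved with the title codes. With the L code as covariate H2-Aa had -0.55, Cd74 -0.46 and Ciita -0.23 (adjusted p = 1.00 for each). In P titles alone, with 1 KI control library, they had -1.998 (adjusted p = 0.59), -1.88 (adjusted p = 0.52) and -1.66 (adjusted p = 0.37). In class I, 21 of 25 estimates were negative, among them B2m (-0.27, adjusted p = 0.43), Tap1 (-0.57, adjusted p = 0.43) and H2-T10 (-0.53, adjusted p = 0.44). H2-Q10 had a positive estimate of 0.33 (adjusted p = 0.43). So did Cd1d1, with 0.24 (adjusted p = 0.50). Without replicate 5 these were -0.29 for B2m (adjusted p = 0.33), -0.50 for Tap1, -0.48 for H2-T10, 0.28 for H2-Q10 and 0.19 for Cd1d1.

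The difference between the diets in the genotype effect was tested directly, as the interaction of genotype and diet. It gave 0 calls by edgeR, DESeq2 and limma-voom among the members, and 0% of all genes were called. At an unadjusted p under 0.05 were 7 members, beside 8.38% of all genes. H2-K2 (-0.60), H2-T9 (-0.45) and H2-T10 (-0.64) had the smallest p-values, with adjusted p-values of 0.49, 0.53 and 0.56. Without replicate 5 they had -0.59, -0.44 and -0.60, and no member was called, beside 0.0134% of all genes. Male and female livers also gave 0 calls among the members by the 3 tools, where edgeR called 1.49% of all genes, or 4.4% without KI ASK1i replicate 5. At an unadjusted p under 0.05 were 7 members, beside 14% of all genes. H2-T22 was nearest, 0.23 higher in males (adjusted p = 0.14), followed by H2-Q4 with -0.29 (adjusted p = 0.22) and H2-Q1 with -0.72 (adjusted p = 0.24). Without replicate 5 their adjusted p-values were 0.086, 0.079 and 0.11.

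Set against each other within a library, class II chains were more abundant relative to class I chains in KI livers. H2-Aa, H2-Ab1 and H2-Eb1 summed to 4.50, 6.05 and 10.3 CPM (lowest, median and highest) per 100 CPM of H2-K1 and H2-D1 in WT control and 4.90, 5.78 and 9.74 in WT ASK1i. KI control libraries gave 44.4, 33.0, 36.4, 19.2 and 30.3, all above every WT library. KI ASK1i libraries gave 5.69, 18.7 and 33.2, and 7.85, 23.0 and 33.2 without replicate 5. The class II sum had group medians of 98.1 CPM in WT control and 621 CPM in KI control. The class I sum, by which it is divided, was also higher in KI control, with medians of 1618 and 2068 CPM.

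**Figure D4:**
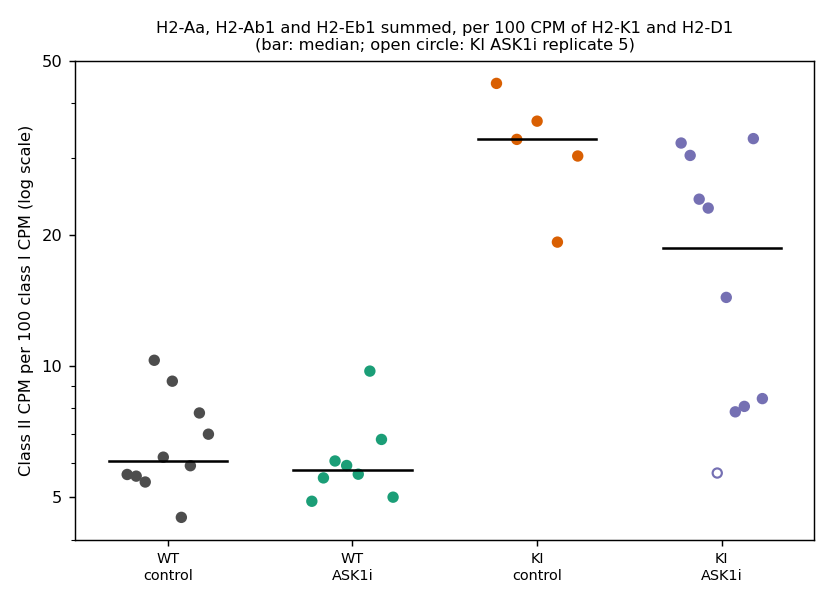
Points are libraries and bars group medians of the summed CPM of H2-Aa, H2-Ab1 and H2-Eb1 per 100 CPM of H2-K1 and H2-D1, on a log axis. WT libraries stay between 4.50 and 10.3, KI control libraries lie between 19.2 and 44.4, and KI ASK1i libraries spread from 5.69 to 33.2.

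The KI ASK1i libraries differed widely among themselves. H2-Aa was 40.2, 56.2, 57.5, 60.5 and 100 CPM in replicates 5, 4P, 1P, 2P and 6, whose Ciita was 1.65, 2.09, 4.01, 2.42 and 4.87 CPM. In replicates 3, 4, 2, 3P and 1, H2-Aa was 173, 179, 233, 269 and 277 CPM and Ciita 10.7, 7.95, 6.52, 7.23 and 12.3 CPM. On log2 CPM the pair had r = 0.91 and rho = 0.88 over the 10 libraries (permutation p = 0.00056 and 0.0016, adjusted 0.012 and 0.020 over the 24 relations computed), and r = 0.85 without the 2 libraries farthest from the median of Ciita. Without replicate 5 they had r = 0.88 and rho = 0.83 (exact permutation p = 0.0033 and 0.0083, adjusted 0.020 and 0.040). In the 6 numbered titles alone they had r = 0.93 and rho = 0.77 (exact permutation p = 0.025 and 0.10, adjusted 0.075 and 0.26 over 3 groups), and the 4 P titles are too few. Csf1r, a marker of macrophages, moved with class II too in KI ASK1i. Csf1r and H2-Ab1 had r = 0.81 and rho = 0.88 in KI ASK1i (adjusted permutation p = 0.019 and 0.020), and r = 0.69 without 2 libraries. Without replicate 5 they had r = 0.74 and rho = 0.83 (adjusted exact permutation p = 0.082 and 0.040). For the same chain, Ciita and H2-Ab1 had r = 0.90 and rho = 0.82 in KI ASK1i (adjusted permutation p = 0.012 and 0.040). Without replicate 5 Ciita and H2-Ab1 had r = 0.86 and rho = 0.75 (adjusted exact permutation p = 0.025 and 0.10). The part of macrophage number in these relations was not tested. In WT control (n = 10) H2-Aa and Ciita had r = 0.31 and rho = 0.05 on log2 CPM (permutation p = 0.37 and 0.89, adjusted 0.64 and 0.97), and r = 0.10 without 2 libraries. In WT ASK1i (n = 8) they had r = 0.58 and rho = 0.19 (exact permutation p = 0.21 and 0.66, adjusted 0.49 and 0.89), and r = 0.04 without 2 libraries. H2-K1 and Nlrc5 had r = -0.50 in WT control (adjusted permutation p = 0.48) and r = 0.24 in KI ASK1i (adjusted permutation p = 0.72). Csf1r and H2-Ab1 had r = 0.23 in WT control (adjusted permutation p = 0.72) and r = 0.57 in WT ASK1i (adjusted exact permutation p = 0.29). The B cell marker Cd79a and H2-Ab1 had r = 0.05 in KI ASK1i (adjusted permutation p = 0.93). Without replicate 5, Cd79a and H2-Ab1 had r = 0.43 (adjusted exact permutation p = 0.51).

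**Figure D5:**
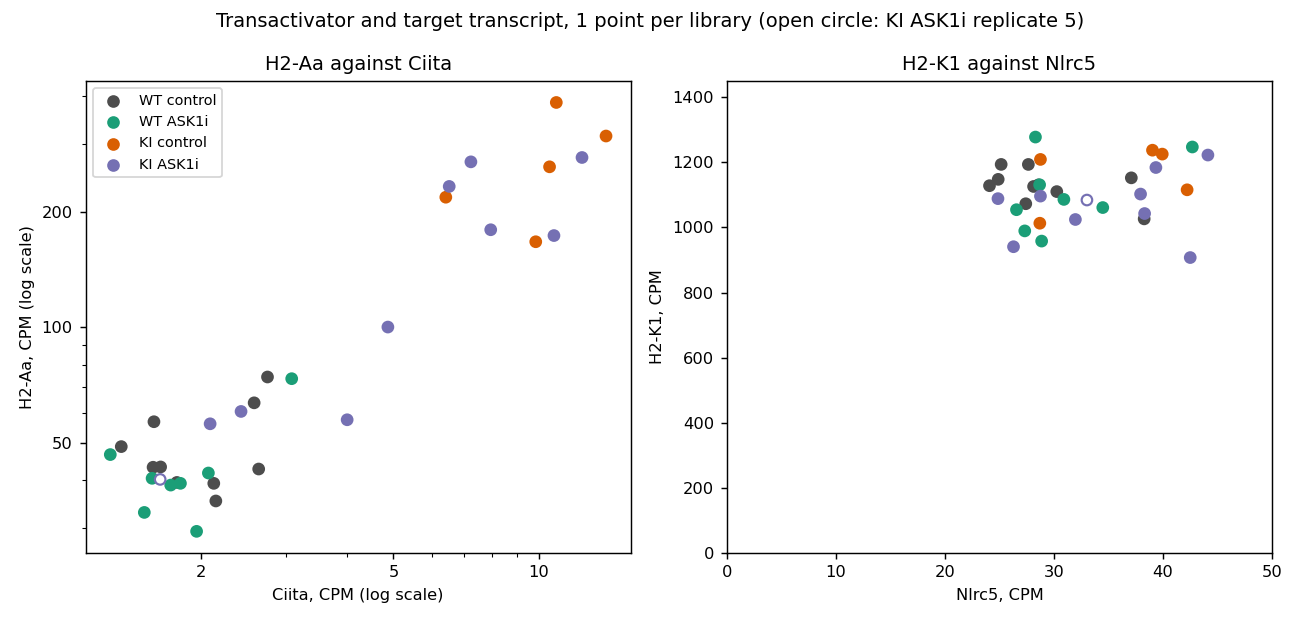
Each point is 1 library, H2-Aa against Ciita on log axes (left) and H2-K1 against Nlrc5 on linear axes from 0 (right), coloured by group. On the left, KI control libraries lie at 6.42 to 13.8 CPM of Ciita with 167 to 385 CPM of H2-Aa, and on the right the groups overlap on both axes.

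Other genes of the pathways were read from lists. On control chow 27.8% of all genes were called higher and 28.9% lower, and on the ASK1i diet 30.3% and 28.8%. A list whose share is near these values is not a result about its genes. Of the genes that process class II cargo in endosomes, 7 of 9 rose and 1 fell in KI on control chow. The protease Ctss, which cuts Cd74, rose by 2.60 (SE 0.27, adjusted p = 7.7e-09), the thiol reductase Ifi30 by 2.27 and the protease Lgmn by 1.76. The ubiquitin ligase gene March8 fell by 0.91. Of the proteins that sit on class II promoters with Ciita, 1 of 7 rose (Nfya, 0.65, adjusted p = 5.5e-05) and 1 fell (Nfyb, -0.53). The RFX subunits Rfx5 (-0.14, adjusted p = 0.32) and Rfxank (-0.23, adjusted p = 0.24) did not pass. Of the interferon gamma axis, which induces Ciita, 8 of 9 tested rose, among them Socs1 (3.78), Irf8 (1.84), Ifngr1 (1.52) and Jak1 (0.36), while Ifng itself, with 17 counts over the WT control libraries, was not tested. The immunoproteasome, which cuts peptides for class I, had 4 of 5 higher on control chow, with Psmb10 at 0.82 and Psmb8 at 0.75. On the ASK1i diet it had 1 of 5 higher. Endoplasmic reticulum chaperones of class I had 0 of 5 called on control chow by edgeR, with 1 (Calr, 0.49) at an unadjusted p under 0.05, and 4 of 5 higher on the ASK1i diet, led by Calr at 0.93 (adjusted p = 0.00014). Of the genes of costimulation and its inhibitors, 5 of 6 were higher on control chow. Cd86 rose by 1.58, Cd80 by 2.09 and the inhibitor Cd274 by 2.02. Of class I ligands and receptors of NK and T cells, 5 of 9 were higher on control chow, with Klrk1 at 1.16 and Cd8a at 1.37. On the ASK1i diet the endosomal genes had 8 of 9 higher and 1 lower, and the promoter proteins 2 of 7 higher and 3 lower. The interferon gamma axis had 6 of 9 higher there, and costimulation and its inhibitors 4 of 6. The ligands and receptors had 4 of 9 higher and 1 lower on that diet.

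Kupffer cell and macrophage markers rose with class II, dendritic cell markers went both ways and B cell markers, given above, fell. On control chow all 8 Kupffer cell markers rose (median log2 fold change 1.81), as did all 7 monocyte and macrophage markers (median 3.93), with Lyz2 at 2.19. The Kupffer markers summed to 356 to 1107 CPM in WT control, 1835 to 2447 CPM in KI control and 632 to 2475 CPM in KI ASK1i, where the lowest was replicate 5. The monocyte and macrophage markers summed to 143 to 342 CPM in WT control, 1159 to 1489 CPM in KI control and 218 to 1883 CPM in KI ASK1i. Conventional dendritic cell markers had 4 of 7 tested higher (Itgax 2.56, Batf3 2.22, Flt3 1.17 and Clec9a 1.07) and 2 lower, among them Ccr7 (-0.96), and summed to 9.09 to 13.0 CPM in WT control and 21.5 to 30.0 CPM in KI control. Plasmacytoid dendritic cell markers had 1 of 4 higher and 1 lower, and T and NK cell markers 3 of 6 higher and 1 lower. Sinusoidal endothelial markers had 4 of 8 higher and 1 lower, and cholangiocyte markers 1 of 5 higher. Beside these counts, 27.8% of all genes were higher and 28.9% lower. Summed, T and NK cell markers stood lower in KI control (9.43 to 13.2 CPM) than in WT control (15.6 to 33.6 CPM), without overlap. All 7 neutrophil markers rose, from a summed 3.50 to 16.5 CPM in WT control to 627 to 3575 CPM in KI control, and Mpo was at 0 in 2 of 10 WT control libraries. The part of any of these cells in the class II result was not tested. Hepatocyte markers, read as a check of the liver label, summed to at least 37049.7 CPM in every library.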

How the data were processed

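The deposited table holds RSEM expected counts per gene for 33 liver libraries, which the authors made and did not normalise. The submitters' processing notes name CASAVA 1.8.2, STAR 2.4, RSEM 1.2.14 and the mm10 build, with neither settings nor an annotation release. RSEM shares multi-mapped reads among near-identical copies, so single H2-Q, H2-T, H2-K1, H2-D1 and H2-DMb values are uncertain. Expected counts were rounded, filtered with filterByExpr, scaled by TMM and fitted with edgeR 4.0.16 (quasi-likelihood, R 4.3.3) on group, sex and title set, with p-values adjusted by Benjamini-Hochberg over all 14934 genes, a threshold of 0.05 and a prior count of 0.125 for fold changes. The fit was tested on simulated data that had the same spread for every gene and no effect of sex, title set or L code. That test therefore does not bear on those effects. CPM values were computed from the counts on TMM-normalised library sizes. Alternatives used DESeq2 1.42.0, limma 3.58.1, other filters, scalings, covariates and subsets, of which P titles alone and the relation in numbered titles were chosen after seeing the data. No 2 libraries of one group agreed within sampling noise: over 128 pairs and 12068 genes the lowest chi-square per gene was 26.3. Total counts set the precision, which the tests cover only as spread between libraries. Members and lists were chosen with earlier results of these data known. Every member may be named, those the results turn on are given by library together with the 3 smallest p-values in each direction, and up to 4 genes of each list are named.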

Additional observations from a re-analysis of the deposited data

Results flagged for a closer look

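Over the 41 tested members in 4 groups, 13 of 164 group tests had a highest or lowest library whose gap to the next, as a share of the group's range, exceeded Dixon's 95% critical value. Chance flags about 1 in 20 groups, and the members share libraries. WT ASK1i held 8 of the 13, WT control 2, KI control 1 and KI ASK1i 2.

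WT ASK1i replicate 7 was the highest of its group in 7 of them. For the class II chains it held 73.57 CPM of H2-Aa, where the next library held 46.7 CPM, 54.89 CPM of H2-Ab1 (next 31.28 CPM) and 44.48 CPM of H2-Eb1 (next 28.36 CPM). It also held 159.8 CPM of Cd74 (next 105.4 CPM) and 3.079 CPM of Ciita (next 2.07 CPM). In class I it held 133.3 CPM of Tapbp (next 102.6 CPM) and 36.21 CPM of Tapbpl (next 30.12 CPM).

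The library labelled KI ASK1i replicate 5 had the lowest Tapbp of its group, 62.06 CPM (next 126.3 CPM), and the highest H2-Ke6, 43.84 CPM (next 30.41 CPM). WT ASK1i replicate 2P held 16.18 CPM of H2-Q1 (next 6.929 CPM). WT control replicate 2P had the lowest H2-Ob, 0.9854 CPM (next 2.488 CPM), and WT control replicate 8 the highest Tapbpl, 26.91 CPM (next 24.52 CPM). KI control replicate 2 had the highest H2-Bl, 0.5548 CPM (next 0.2819 CPM).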

How the results depend on the processing

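On control chow 7 class II members were called higher under every setting run except P titles alone (3), which also gave 3 class I members higher, 0 class II members lower and a reversed H2-Q7 (-0.0148). On the ASK1i diet the 7 became 3 in P titles alone, with 0 class II members lower. With the L code in place of the title set, control chow gave 3 class I members higher (12 in the fit reported), 5 lower (1) and 0 class II members lower (1), and the ASK1i diet 1 class II member lower (2). With sex fitted within genotype, class I counts were 7 higher on control chow, and 3 higher and 5 lower on the ASK1i diet, where 1 class II member was lower. Class I members lower on control chow numbered 2 with group alone, 0 in numbered titles and 3 with only the groups compared. Class II members lower on the ASK1i diet numbered 1 without the count filter, with at least 1 CPM in at least 5 libraries, in numbered titles and with only the groups compared. Members higher under ASK1i in WT numbered 0 with the L code, in numbered titles and in P titles, and 4 with only the groups compared, where 1 was lower. The cause of these differences was not tested. Leaving out 1 library at a time, class I counts on control chow ranged from 9 to 13 higher and 1 to 2 lower, and on the ASK1i diet from 5 to 7 higher and 6 to 9 lower. Class II counts were 7 higher throughout, with 1 lower on control chow and 1 to 3 lower on the ASK1i diet. Without KI ASK1i replicate 4, 1 member was higher in males (0 with all libraries). Over all genes, 34.2% were called on control chow with the L code and 25.5% in P titles, against 56.7%, and 5.11% under ASK1i in WT with only the groups compared, against 1.4%. The estimates for ASK1i in KI kept their sign for H2-Aa, Cd74 and Ciita under the settings run. Same-numbered libraries did not deviate together (37 correlations from -0.2075 to 0.3611, 14 over 0.1, and the own number best in 12 of 74 cases), so the numbers are not read as pairs. With a replicate block the class counts stayed within 1.5 times those reported and H2-Aa had 2.10 with control chow and 1.44 with the inhibitor. At these depths members under about 1 CPM, such as H2-Eb2 and H2-Oa, had the widest standard errors.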
